A study of Homo sapiens with 4 samples.

Results

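GATA3, MDFIC and PRDM1 are 3 regulators of transcription and cell identity among the 785 gene probes of a NanoString panel, an assay that counts barcoded probes on individual RNA molecules with no amplification step. They were grouped for their role, with their levels in these samples already known, so their differences between genotypes are given as a description and not tested. The samples were total RNA of 4 lines of HAP1, an attached human cell line with a nearly haploid genome, established from a chronic myeloid leukaemia line. Wild-type lines 1 and 7 were set against MATR3 knockout lines 1 and 5, all bought from one supplier, cultured in IMDM medium with fetal calf serum and given no named treatment. The labels equate the wild-type lines with batches of a single catalogue product and call each knockout line a clone. Genotype was thus compared over 2 wild-type batches and 2 knockout clones, all called lines here. The spread is one of batches in the wild type and of clones in the knockout. With so few clones, effects of a clone cannot be fully told apart from those of genotype. MATR3 encodes matrin 3, an RNA- and DNA-binding protein of the nuclear matrix. It is not analysed here, so the levels do not check the genotype labels.

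GATA3 is a zinc finger factor that binds GATA sequences in DNA. It directs T helper 2 cells and innate lymphoid cells and is needed in mammary, kidney, parathyroid and inner ear development. MDFIC, the MyoD family inhibitor domain containing protein, has a cysteine-rich domain through which it binds other transcription regulators, has been linked to WNT and JNK signalling, and is known as an auxiliary subunit of PIEZO mechanosensitive channels. PRDM1, also called BLIMP-1, is a zinc finger repressor that ends the B cell programme as plasma cells form and restrains effector T cells.

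The start regions of the genes are shown because GATA3 and MDFIC had lower levels in the same lines. RefSeq (GRCh38.p14) lists 6 start windows for GATA3, 2 for MDFIC and 2 for PRDM1, each with 250 bases before and 50 after a start. The window richest in CG dinucleotides was taken for each gene. Which start these cells use was not measured. Capitals mark matches to the 5-base motifs GATAA and GATAG (GATA factors), GAAAG (the repeated core of PRDM1 sites) and CTTTG (TCF/LEF factors), on either strand.
GATA3, chr10:8053391-8053690, plus strand: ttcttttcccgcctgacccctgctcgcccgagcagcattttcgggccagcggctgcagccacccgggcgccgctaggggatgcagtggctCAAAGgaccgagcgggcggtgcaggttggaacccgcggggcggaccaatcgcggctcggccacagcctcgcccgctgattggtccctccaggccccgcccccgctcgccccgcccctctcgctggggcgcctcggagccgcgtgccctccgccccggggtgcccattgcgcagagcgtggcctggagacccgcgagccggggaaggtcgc
MDFIC, chr7:114921904-114922203, plus strand: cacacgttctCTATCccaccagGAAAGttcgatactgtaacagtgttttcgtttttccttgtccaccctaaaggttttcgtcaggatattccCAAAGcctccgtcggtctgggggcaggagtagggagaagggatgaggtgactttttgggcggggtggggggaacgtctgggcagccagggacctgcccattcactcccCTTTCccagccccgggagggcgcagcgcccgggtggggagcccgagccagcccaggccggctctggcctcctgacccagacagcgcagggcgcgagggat
PRDM1, chr6:106086086-106086385, plus strand: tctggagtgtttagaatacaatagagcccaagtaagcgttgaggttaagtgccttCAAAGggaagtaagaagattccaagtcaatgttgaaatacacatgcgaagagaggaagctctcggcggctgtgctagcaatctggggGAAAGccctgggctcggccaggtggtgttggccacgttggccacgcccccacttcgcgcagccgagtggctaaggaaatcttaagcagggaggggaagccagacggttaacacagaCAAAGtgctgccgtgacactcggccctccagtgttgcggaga
The GATA3 window held 36 CG dinucleotides and 74.7% G or C, the MDFIC window 17 and 62.3%, and the PRDM1 window 14 and 54.3%. The median over 35116 windows of all genes was 14 CG dinucleotides. That median covers unselected windows, while each window shown was the richest of its gene, so they are not a like comparison. The other windows held 5 to 29 for GATA3, 15 for MDFIC and 8 for PRDM1. The CTTTG motif occurred 1 time in the GATA3 window, 1 time in the MDFIC window and 2 times in the PRDM1 window. It occurs in 47.5% of all windows. GAAAG was found 2 times in the MDFIC window, 1 time in the PRDM1 window and 0 times in the GATA3 window (54.7% of all windows hold it). GATAG occurred 1 time, in the MDFIC window (18.3% of all), and GATAA in none of the 3 (22.7% of all). These counts hold for the windows shown only. Among the other GATA3 windows, GAAAG occurred up to 3 times in a window, GATAG 1 time in a window and GATAA 1 time in another. Such short matches are common and mark no binding site.

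Total gene counts ranged from 448610 to 571767 per line, and each line had its own background limit, set 2 SD above the mean of its 8 negative controls, at 19.5 to 25.7 normalised counts. Of 23 measured markers of T cells, B cells, myeloid cells, leukocytes, endothelium and epithelium, PTPRC, the pan-leukocyte antigen CD45, lay at 6.68 to 9.39, below the limit in all 4 lines. The T cell receptor subunits CD3D and CD3E and the B cell antigens MS4A1, CD79A and CD79B were among the 13 markers below it in all 4 lines. CD3G, CD4, CD28, LCK and ZAP70 exceeded it in 2 lines each and CD8B and CD22 in 3, none at more than 40.2 normalised counts. Above it in all 4 were CD14 and CD68 among the myeloid markers and CDH1, the epithelial cadherin. The summed level of the 10 T cell markers ran from 171 to 224 in wild type and from 112 to 168 in knockout lines, and that of the 4 B cell markers 56.3 and 72.7 against 38.5 and 49.0. The 5 myeloid markers summed to 101 and 112 against 76.0 and 89.0, and the 2 endothelial markers to 27.1 and 28.2 against 22.9 and 25.6. CDH1 had 35.5 and 41.1 against 39.0 and 40.6, and PTPRC 6.84 and 9.39 against 6.68 and 7.28, both with overlap. With 13 of the 23 markers below the limit in all 4 lines, the sums are partly background. Among the 173 panel genes with a mean of 20 to 50, 144 were lower in the knockout. The part of these markers in the differences below was not tested.

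GATA3 was lower in both knockout lines. Its level was 161 normalised counts in wild-type line 1 and 145 in wild-type line 7, against 59.0 and 46.8 in knockout lines 1 and 5. The groups did not overlap, and the lowest wild-type value was 2.45 times the highest knockout value. The means were 153 ± 11.4 and 52.9 ± 8.59 (SD, n = 2), so the knockout lines held 34.7% of the wild-type level. On the scale of log2(value + 1) the difference was -1.52 ± 0.21 (SE). The residual GATA3 signal lay 3.02 and 2.16 times above the background limit in knockout lines 1 and 5, so the transcript was still detected there. Behind these values were 154, 169, 53 and 45 whole counts in the order above. The 95% Poisson intervals of the knockout lines, 44.2 to 77.1 and 34.2 to 62.7 normalised counts, overlapped each other and lay below those of the wild-type lines, 136 to 188 and 124 to 168. The intervals cover counting error only.

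MDFIC was also lower in both knockout lines, and it varied little within a genotype. The wild-type lines stood at 128 and 129 normalised counts and the knockout lines at 55.6 and 57.2. The lowest wild-type value was 2.24 times the highest knockout value, so the groups did not overlap. The means were 129 ± 0.622 and 56.4 ± 1.12 (SD, n = 2), a knockout level of 43.8% of wild type and a log2 difference of -1.18 ± 0.19 (SE). The line-to-line SD was smaller than counting error alone would give. Behind them were 123 and 151 whole counts for wild type and 50 and 55 for knockout. The 95% Poisson intervals ran from 107 to 153, 109 to 152, 41.3 to 73.4 and 43.1 to 74.5. The SE from the fit, which borrows the spread of other genes of like abundance, is therefore the more cautious error. MDFIC stood 2.85 and 2.64 times above the background limit in knockout lines 1 and 5.

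PRDM1 was close to background and differed between the knockout lines. It was at 17.7 in wild-type line 1, below that line's limit of 25.7, and at 23.1 in wild-type line 7, against a limit of 21.1. Knockout line 1 had 43.4, which is 2.22 times its limit, while knockout line 5 had 21.9, level with its limit of 21.7. Over the 785 genes, 515 lay above the limit in knockout line 1 and 409 in knockout line 5. In wild-type lines 1 and 7 the numbers were 448 and 558. The part of this in the PRDM1 values was not tested. The groups overlapped, since the value of knockout line 5 lay between those of the wild-type lines. The means were 20.4 ± 3.79 for wild type and 32.6 ± 15.2 for knockout (SD, n = 2), and the log2 difference of 0.58 was little larger than its SE of 0.43. It was 0.10 without knockout line 1 and 1.06 without knockout line 5, so its size rested on knockout line 1. The counts were 17, 27, 39 and 21. The 95% interval of knockout line 1, 30.9 to 59.3, lay above that of wild-type line 1, 10.3 to 28.4, but overlapped those of wild-type line 7, 15.2 to 33.6, and knockout line 5, 13.5 to 33.4.

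**Figure D1:**
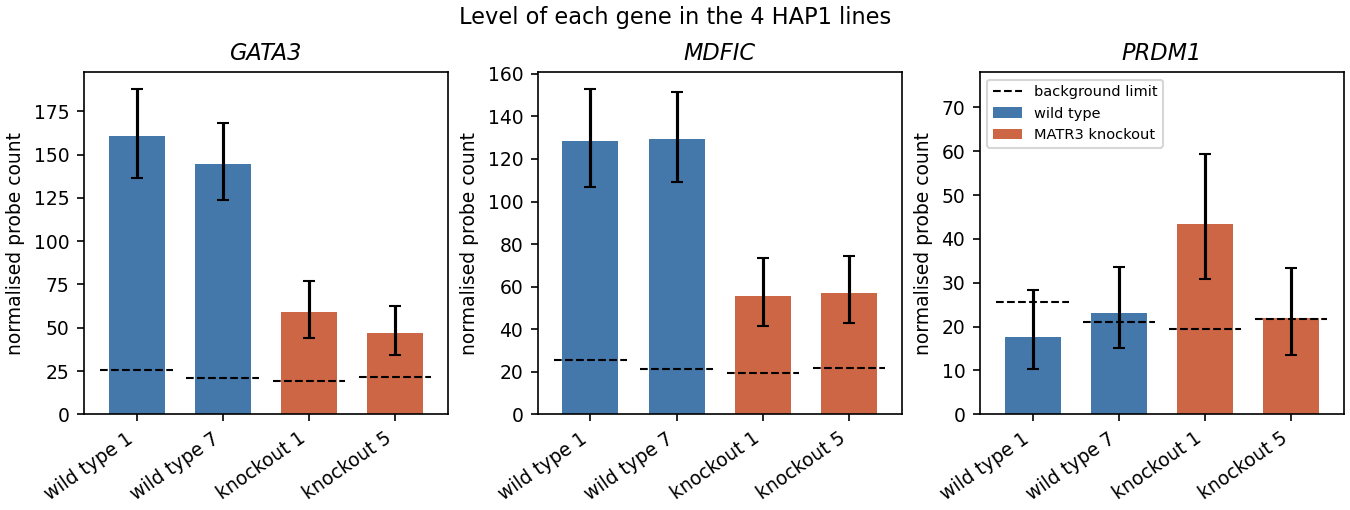
Normalised probe counts of GATA3, MDFIC and PRDM1 (vertical axes, each from 0) in the wild-type lines (blue) and MATR3 knockout lines (orange), with 95% Poisson intervals as error bars and each line's background limit as a dashed line. GATA3 and MDFIC are lower in both knockout lines, while PRDM1 stands clear of the limit only in knockout line 1, at 43.4.

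Subtracting the mean of the negative control probes, a setting added after the values were seen, leaves 144 and 44.7 for GATA3, 120 and 48.2 for MDFIC, and 11.7 and 24.4 for PRDM1 as wild-type and knockout means. The knockout level of GATA3 then becomes 31.1% of wild type and that of MDFIC 40.2%. Differences between lines of one genotype may not be independent of the choice of the genes on the genotype contrast. Their absolute log2 sizes were 0.15 (wild type) and 0.33 (knockout) for GATA3. They were 0.0098 and 0.040 for MDFIC, and 0.36 and 0.96 for PRDM1. The median over the 514 tested genes was 0.17 within the wild type and 0.19 within the knockout. In the 173 tested genes that average 20 to 50, the range that holds PRDM1, the medians were 0.27 and 0.50.

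The genotypes were compared over all 514 genes with a mean of 20 or more, using limma on log2(value + 1) with Benjamini-Hochberg adjustment. At an adjusted p under 0.05, 42 genes (8.17%) were called, 32 higher and 10 lower in the knockout, or 54 and 8 when the samples were scaled on the reference genes without TBP. Without knockout line 1 the balance turned to 30 higher and 47 lower, and limma without its abundance trend called 2 higher and 2 lower. GATA3 and MDFIC are 2 of 3 regulators whose knockout values both lay under both wild-type values; this held for 158 of the 514 genes (30.7%), the opposite for 22.4%, and 1.95% were called lower. Nothing is read from the count, because the genes were chosen on this contrast. Of all 514 differences, GATA3 had the 5th lowest, MDFIC the 10th lowest and PRDM1 the 490th. The direction of the differences varied with abundance. Among 173 genes averaging 20 to 50, 144 were lower and 29 higher in the knockout, with a median log2 difference of -0.43, against 0.03 for the 341 genes at 50 or more. GATA3 and MDFIC, with means over all lines of 103 and 92.6, belong to the second set, and PRDM1, at 26.5, to the first.

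**Figure D2:**
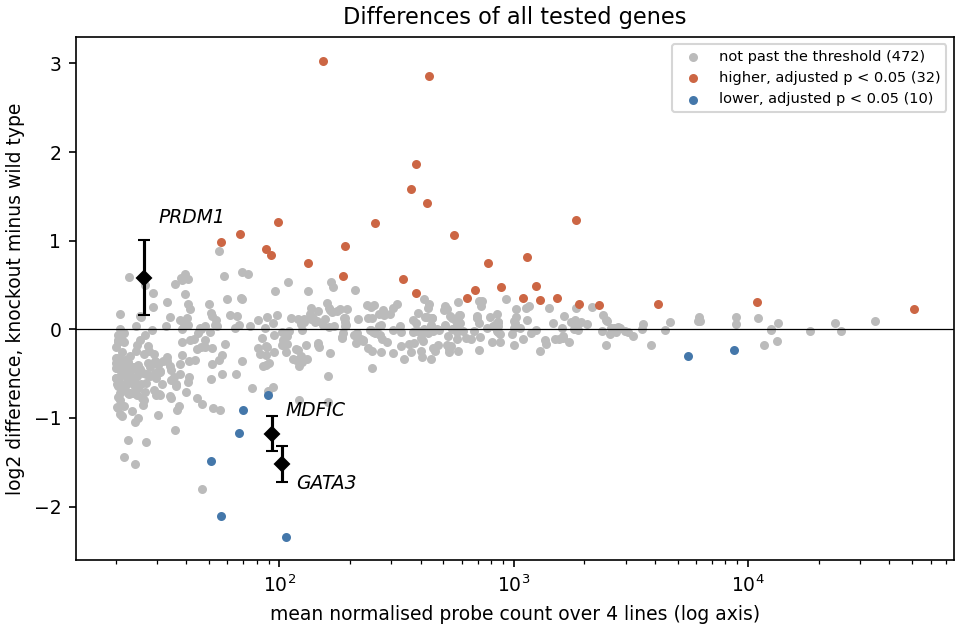
Log2 difference between knockout and wild type (vertical axis) against the mean normalised count over the 4 lines (log axis) for the 514 tested genes, with orange and blue points for genes called higher and lower. Black diamonds with SE bars show GATA3 and MDFIC below most genes of their abundance and PRDM1, at 0.58, above most genes near a mean of 26.5, where the median difference is negative.

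The genes with the profile over the 4 lines nearest to that of GATA3, by Euclidean distance of log2 values after removing each gene's mean, were CD44, IL17D and MDFIC, at distances of 0.14, 0.36 and 0.44 among 340 candidates with a mean of 50 or more. For MDFIC they were ALPK1, IL17D and CD44, at 0.31, 0.36 and 0.37. CD44, the hyaluronan receptor, went from 81.4 (wild-type line 1) and 70.2 (line 7) to 27.8 (knockout line 1) and 25.0 (line 5). IL17D, a cytokine of the interleukin 17 family, had 94.9, 90.7, 47.9 and 34.3 in that order, and ALPK1, a kinase that senses a bacterial sugar, 96.0, 86.4, 50.1 and 45.8. For PRDM1 the nearest were IFI6, PIK3CD and FAS, at larger distances of 0.52, 0.60 and 0.61 among 341 candidates. PRDM1 lay 2.18 from GATA3 and 1.91 from MDFIC. The likeness rests on 4 lines, and the genotype difference on which the genes were chosen enters it.

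Of the lineage transcription factors fixed as a list beside these 3, 19 were on the panel and 13 were tested, of which 1 rose, 0 fell and 12 did not pass. The median log2 difference was -0.03, against -0.04 over all tested genes, and 6.23% of all tested genes were called higher. The gene that rose was AHR, the ligand-activated aryl hydrocarbon receptor, at 64.7 and 57.3 in wild type and at 111 and 119 in knockout lines. Its log2 difference was 0.90 (limma adjusted p = 0.017), and its groups did not overlap, which held for 22.4% of all tested genes with the knockout higher. Its call was lost without knockout line 5 (adjusted p = 0.0858) and when limma was run without its abundance trend (0.0801). MYC, the growth-promoting factor that PRDM1 is known to repress, had 10374 (line 1) and 6669 (line 7) as wild-type levels against 8938 and 9339 in knockout lines, a difference of 0.14 (adjusted p = 0.596). Its wild-type lines lay farther apart than the genotypes. Without wild-type line 1 the MYC difference was 0.45 and without wild-type line 7 it was -0.18, so its sign rested on which wild-type line was kept. XBP1, the plasma cell and unfolded protein response factor, had a difference of -0.17 (limma adjusted p = 0.246). It was -0.27 without wild-type line 1 and -0.08 without wild-type line 7. CEBPB, a factor of myeloid and fat cells, had means of 257 ± 23.2 and 221 ± 4.72 (SD, n = 2; limma adjusted p = 0.403).

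Among the factors that define helper T cell types beside GATA3, TBX21 of T helper 1 cells had a mean of 28.8 for wild type and 20.5 for knockout lines, and FOXP3 of regulatory T cells 29.5 and 36.9. BCL6, which opposes PRDM1 in B cells, had 51.2 and 49.3, and MAF, a partner of GATA3 in T helper 2 cells, 138 and 147. IRF4, which acts with PRDM1 in plasma cells, had 33.0 and 34.9. None of these 5, named after their values were seen, passed the limma threshold, with adjusted p from 0.491 to 0.958. TBX21, FOXP3 and IRF4 were close to background. In wild-type line 1 they stood at 25.0, 24.0 and 24.0, below its limit of 25.7. TBX21 in knockout line 5, at 18.7, was below the limit of 21.7, and their other values lay above the limits. RUNX3, a factor of cytotoxic T cells also named afterwards, had 59.5 and 58.2 in the wild-type lines against 42.3 and 46.8 in the knockout lines. Its groups did not overlap, and it did not pass (limma adjusted p = 0.426). Both knockout values lay below both wild-type values in 5 of the 13 tested lineage factors. The same held for 30.7% of all tested genes and 23.8% of those with a mean of 50 or more.

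Of 27 tested factors that are activated by signals rather than lineage, 1 rose, 0 fell and 26 did not pass, with a median of 0.05, where 6.23% of all tested genes were called higher. NFE2L2, also called NRF2, the regulator of antioxidant genes, rose from 1033 ± 37.7 to 1451 ± 105 (SD, n = 2), or by 0.49 on the log2 scale (limma adjusted p = 0.00375). Its difference lay between 0.41 and 0.56 with any 1 of the lines left out. It did not pass when limma was run without the abundance trend (adjusted p = 0.186). ATF4 of the integrated stress response, SMAD4 of TGF-beta signalling and the general factor SP1 were the most abundant that did not pass, with adjusted p of 0.216, 0.186 and 0.599. JUN, an AP-1 subunit, had a log2 difference of -0.65 (limma adjusted p = 0.119), which lay between -0.89 and -0.41 with any 1 of the lines left out.

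Of the type 2 immunity genes around GATA3, 29 were on the panel, 14 fell below the filter on low values and 15 were tested. Limma called 0 of them, 0 had an unadjusted p under 0.05, and edgeR called 0. Of the 15, 13 were lower in the knockout and 11 had both knockout values below both wild-type values, against 30.7% of all tested genes and 44.5% of those averaging 20 to 50. The median log2 difference was -0.44. That median is level with the -0.43 of the tested genes averaging 20 to 50, and 10 of the 15 list genes, 9 of them lower, lie in that range. Of the list genes with a mean of 50 or more, IL13RA1, JAK1, STAT6 and IL4R had both knockout values below both wild-type values. IL17RB overlapped, and 23.8% of all tested genes at that level had such values. The part of abundance in the differences of the list was not tested. The most abundant were IL13RA1, a receptor chain for IL-4 and IL-13, at 595 ± 14.7 and 550 ± 11.6, IL17RB, the receptor for IL-25, at 185 ± 13.4 and 197 ± 24.9, and the kinase JAK1 at 179 ± 6.88 and 150 ± 33.0 (wild type and knockout, SD, n = 2). IL5, the eosinophil cytokine, stood at 41.7 and 49.6 (wild type) against 41.2 and 13.5 (knockout lines 1 and 5). CCR4, a T helper 2 chemokine receptor, had 23.0, 33.4, 18.9 and 11.5. Without knockout line 1 the log2 differences were -1.68 for IL5 and -1.20 for CCR4, resting on values of knockout line 5 that lay below its background limit of 21.7. Without knockout line 5 they were -0.14 and -0.53.

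Of 38 WNT, JNK, elongation factor and glucocorticoid receptor genes listed around MDFIC, 8 were on the panel and all 8 were tested. These were JNK pathway genes, GSK3B, LEF1 and TCF7, so the elongation factor and glucocorticoid receptor genes were not measured. Of the 8, 1 rose and 0 fell, with a median of -0.02, where 6.23% of all tested genes were called higher. MAP2K4, the kinase MKK4 that activates JNK, rose from 552 ± 4.04 to 708 ± 6.02 (SD, n = 2), a log2 difference of 0.36 (limma adjusted p = 0.0325). Its call was lost without wild-type line 7 (0.0773), knockout line 1 (0.0621) or knockout line 5 (0.126), with scaling on the positive control probes (0.102) and without the abundance trend (0.234). MAPK9, which encodes JNK2, was at 1405 ± 79.4 and 1183 ± 12.7 (SD, n = 2) and did not pass (adjusted p = 0.0868). GSK3B, the kinase that marks beta-catenin for degradation, was at 482 ± 3.49 and 480.2 ± 22.8, and MAP2K7, the other JNK kinase, at 374 ± 1.79 and 365 ± 5.90 (SD, n = 2). LEF1 and TCF7, the nuclear partners of beta-catenin and named after their values were seen, had log2 differences of -0.17 and 0.05 (limma adjusted p of 0.63 and 0.941).

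Of the B cell, plasma cell and T effector genes around PRDM1, 28 were on the panel, 17 fell below the filter and 11 were tested. Limma called 0 of them, 1 (XBP1) had an unadjusted p under 0.05, edgeR called 0, and the median was -0.03. Besides MYC and XBP1, described above, the most abundant was STAT3, the mediator of IL-6 and IL-21 signals. STAT3 stood at 794 ± 86.4 for wild type and 893 ± 66.5 for knockout lines (SD, n = 2; limma adjusted p = 0.382). FAS, a death receptor and 1 of the genes nearest to PRDM1 in profile, stood at 50.1 and 71.0 (wild type) against 81.2 and 71.8 (knockout; adjusted p = 0.456).

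**Figure D3:**
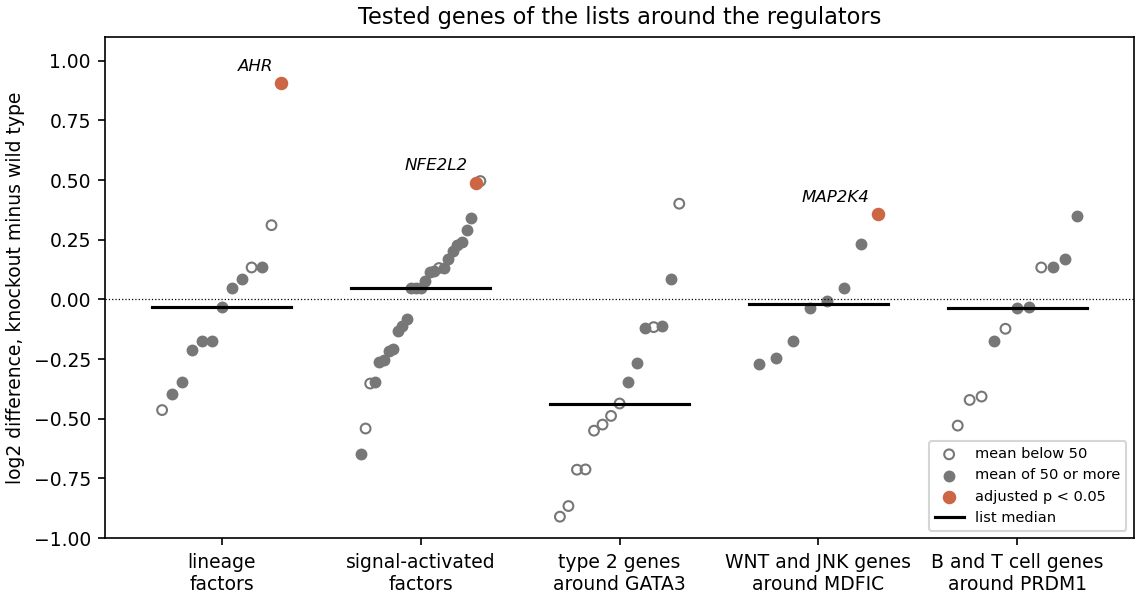
Log2 difference between knockout and wild type for the tested genes of 5 lists (13, 27, 15, 8 and 11 genes from left to right), with open circles for genes with a mean below 50, orange for genes past the threshold and a bar at each median. AHR, NFE2L2 and MAP2K4 are the genes past the threshold, and the type 2 genes around GATA3 have the lowest median, -0.44, with mostly open circles below 0.

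The 3 regulators lie on chromosomes 10, 7 and 6. Gene order was taken from RefSeq and covered 768 of the 785 genes. Distances were not taken into account, and genes off the panel can lie between those named. Around GATA3 the nearest tested genes, PFKFB3, PRKCQ, MRC1, MAP3K8 and ALOX5, had log2 differences between -0.57 and -0.12, and none passed in limma (adjusted p from 0.339 to 0.614). GATA3, at -1.52, was lower than each of them. The 4 nearest tested genes around MDFIC had differences close to 0: 0.07 for SEM1, 0.11 for TRIM56, -0.01 for NAMPT and 0.01 for CUL1, with adjusted p from 0.592 to 0.971. On chromosome 6, the genes before PRDM1 were NT5E at -0.46, MAP3K7 at 0.13 and CCNC at 0.01 (limma adjusted p of 0.523, 0.478 and 0.949). PRDM1 itself had 0.58, and FYN and MARCKS after it 1.20 and 1.24 (limma adjusted p of 0.000229 and 7.53e-06). MAP3K5, the next, had 0.65 (adjusted p = 0.154). Over all tested genes 6.23% were called higher and 1.95% lower. Of the 37 other tested genes of chromosome 6, 9 were higher and 0 lower past the threshold, against 1 higher (BNIP3) and 0 lower of the 18 others on chromosome 10 and 1 higher (AHR) and 0 lower of the 10 others on chromosome 7. Whether any of the 3 regulators differs from its neighbours, or chromosome 6 from the others, was not tested. Nothing is read from the distance of GATA3 and MDFIC to their neighbours, because both were chosen on this contrast.

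**Figure D4:**
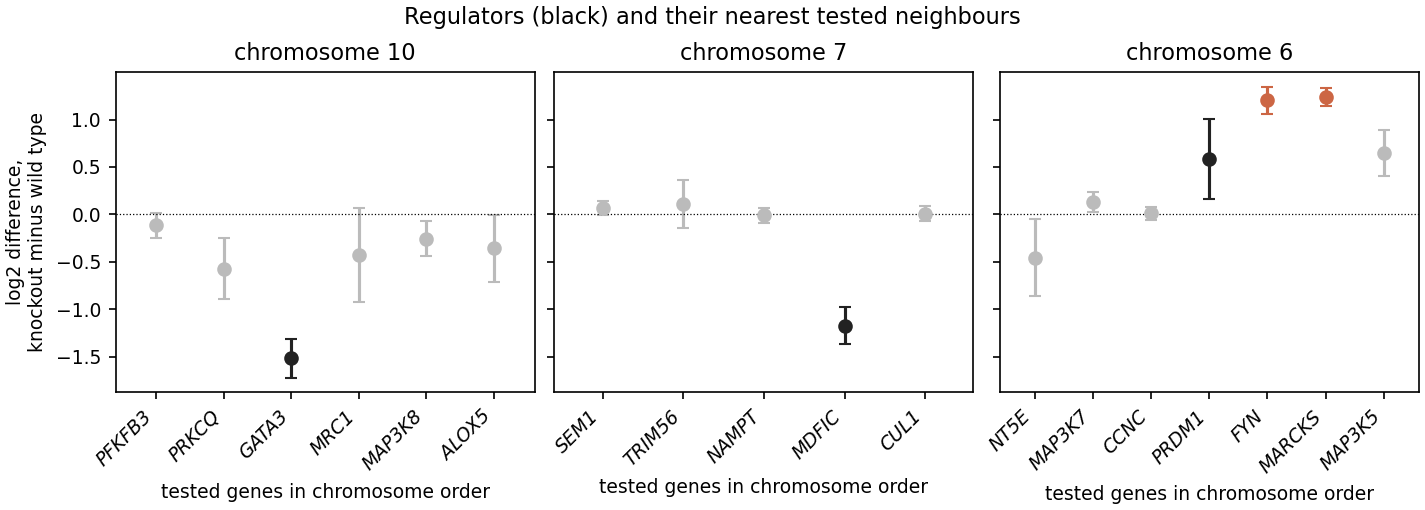
Log2 difference between knockout and wild type with SE bars for GATA3, MDFIC and PRDM1 (black) and up to 3 tested genes on either side, in chromosome order and not to distance, orange where past the threshold. GATA3 and MDFIC, which were chosen on this contrast, lie below neighbours between -0.57 and 0.11. PRDM1, at 0.58 with an SE of 0.43, lies between CCNC at 0.01 and FYN at 1.20.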

How the data were processed

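The deposited gene values are a signal, whole NanoString counts that the authors multiplied by 1 factor per sample. The factors, 1.04 and 0.856 for wild-type lines 1 and 7 and 1.11 and 1.04 for knockout lines 1 and 5, were read from the values, which are whole multiples of them in 100.0% of cases (tolerance 0.006). In wild-type line 7, 4 genes stand at a floor of 1.00 and were left out of that reading. The normalisation and any background subtraction are not given in the sources used here. R 4.1.1 is named per the submitters' processing notes. The 14 control probes are unscaled.

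Whole counts were recovered by division. Genes with a mean of 20 or more (514 of 785) were fitted with limma 3.58.1 in R 4.3.3 (lmFit, eBayes with trend) on log2(value + 1), two-sided, without covariates. Fold changes on this scale understate those of low genes. The limma p-values rest on a spread between lines that is mostly borrowed from other genes of like abundance (prior degrees of freedom 9.0). That spread may be technical. edgeR 4.0.16 on the recovered counts was an alternative. The script was tested on simulated data. No set tests were run.

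The members, lists and tests were chosen with earlier results of these data known. Named were the 3 members, list genes past the threshold, the 3 most abundant others per list, the 3 nearest profiles and up to 3 neighbours per side; other genes were named after their values were seen. MATR3 is not analysed here, and 1 gene of the lists is not reported here.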

Additional observations from a re-analysis of the deposited data

How the results depend on the processing

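No paired analysis was possible because replicate number 1 alone occurs in both genotypes. The log2 difference of GATA3 stayed between -1.68 and -1.35 and that of MDFIC between -1.30 and -1.06 over all scalings, filters, pseudocounts, tests and samples left out. That of PRDM1 ranged from 0.10 to 1.06 without single lines and from 0.44 to 0.90 otherwise, and a filter at a mean of 50 left it out. The number of genes called was 42, from 29 without knockout line 5 to 77 without knockout line 1, where 39.0% were higher in place of 76.2%. It was 4 under limma without the trend, with 0 in the lineage, signal-activated and MDFIC lists, and 41 with edgeR. Scaling on the reference genes without TBP called 62, of which 87.1% were higher, with 2 signal-activated factors, the added one being SMAD4 (adjusted p = 0.0356). Scaling on the positive control probes left 0 calls in the MDFIC list. Without single lines the calls ranged from 0 to 3 for lineage factors, 1 to 2 for signal-activated factors, 0 to 2 for the type 2 list, 0 to 1 for the MDFIC list and 0 to 2 for the PRDM1 list. A group left with 1 line is assumed to vary like the other. The cause was not tested. Low counts limit PRDM1 most: the median SE was 0.40 for genes with a mean from 20 to 50 and 0.12 above.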
